A study of Homo sapiens with 4 samples.

Results

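Messenger RNA levels of 10 genes that carry 5-fluorouracil to its target, activate it or break it down were examined in a drug-resistant human colorectal cancer line. The genes were chosen by name (TYMS, TYMP, UPP1, UMPS, UCK1, UCK2, DPYD, TK1, DUT and CDA), and each had 1 row among the 20323 gene rows of the files. The libraries were poly(A) RNA of 5-FU-resistant HCT8, a resistant derivative of the colorectal cancer line HCT-8. In the METTL14 overexpression group (n = 2) the cells carried a plasmid for METTL14, a subunit of the complex that places N6-methyladenosine on mRNA, and in the control group (n = 2) a negative control plasmid. All cells of both groups, by the design text, received cycloheximide, which blocks translation elongation, at 100 ug/mL, so no value here comes from untreated cells. Each group rests on a single resistant line, and the labels do not say how it was derived. By the design text the experiment was done more than once, independently. If the libraries of a group do not come from separate cultures, the p-values measure technical spread only.

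5-Fluorouracil is a pyrimidine analogue that acts only after cells turn it into nucleotides. UMPS joins it to phosphoribosyl pyrophosphate in a single step, UPP1 turns it into fluorouridine that UCK1 and UCK2 phosphorylate, and TYMP with TK1 leads to the deoxynucleotide that blocks TYMS, thymidylate synthase. DUT destroys deoxyuridine triphosphates, the fluorinated one included, DPYD catalyses the rate-limiting step of breakdown, and CDA deaminates cytidines, among them an intermediate of the oral prodrug capecitabine. TYMS, TK1 and DUT are textbook genes of S phase, when cells need thymidine nucleotides.

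The starting regions of 4 genes are shown because 3 of them, TYMS, TK1 and DUT, fell together, and the fourth, CDA, moved the other way. Each runs from 250 bases before to 50 bases after the RefSeq transcript start on GRCh38.p14, written along the gene's own strand, 5′ to 3′. The TYMS window lies at chr18:657403-657702, plus strand, the TK1 window at chr17:78187155-78187454, minus strand, the DUT window at chr15:48330845-48331144, plus strand and the CDA window at chr1:20588847-20589146, plus strand. Capitals mark letters of the E2F site, the S phase element of many replication genes (TTTCCCGC, TTTGGCGC, TTTCGCGC or TTTGCCGC on either strand).
TYMS: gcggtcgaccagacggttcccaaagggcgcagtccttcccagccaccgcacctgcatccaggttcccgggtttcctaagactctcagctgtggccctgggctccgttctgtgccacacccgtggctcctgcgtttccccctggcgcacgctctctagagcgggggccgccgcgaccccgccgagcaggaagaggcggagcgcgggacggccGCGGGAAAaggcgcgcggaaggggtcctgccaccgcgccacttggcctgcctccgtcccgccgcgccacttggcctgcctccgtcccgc
TK1: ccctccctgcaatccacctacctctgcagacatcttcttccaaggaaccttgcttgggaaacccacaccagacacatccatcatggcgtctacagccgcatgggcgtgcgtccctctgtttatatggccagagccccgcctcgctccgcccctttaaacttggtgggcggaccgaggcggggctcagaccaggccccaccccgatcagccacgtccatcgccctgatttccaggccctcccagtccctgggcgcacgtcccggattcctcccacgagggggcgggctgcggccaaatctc
DUT: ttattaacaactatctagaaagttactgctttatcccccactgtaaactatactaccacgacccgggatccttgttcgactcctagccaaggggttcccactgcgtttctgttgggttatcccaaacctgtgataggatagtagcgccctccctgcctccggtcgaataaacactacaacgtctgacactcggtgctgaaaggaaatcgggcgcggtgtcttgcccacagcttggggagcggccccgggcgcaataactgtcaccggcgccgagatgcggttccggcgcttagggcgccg
CDA: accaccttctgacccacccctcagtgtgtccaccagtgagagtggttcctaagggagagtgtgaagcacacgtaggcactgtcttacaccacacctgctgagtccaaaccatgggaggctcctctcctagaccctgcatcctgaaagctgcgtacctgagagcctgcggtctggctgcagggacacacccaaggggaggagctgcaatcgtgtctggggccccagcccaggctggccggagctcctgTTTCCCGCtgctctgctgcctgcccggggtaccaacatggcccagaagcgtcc

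Of the 10 windows, those of TYMS and CDA held such letters, 1 match each. The TYMS match was TTTCCCGC read on the opposite strand, its first base 39 bases before the start, and the CDA match was TTTCCCGC on the gene's strand, 3 bases before the start. Among 35116 windows of the same length, 3.31% held any of these 4 spellings. CCAAT, the letters of NF-Y, stood in the windows of TYMP and UCK2 (34.6% of all windows), and GGGCGG, those of SP1, in the windows of TYMP, TK1, UPP1, UCK1, UCK2 and DPYD (45% of all windows). Where these motifs lie close they can overlap, and a match describes letters only. Among the 4 genes shown, TYMS fell and CDA rose with a match, and TK1 and DUT fell with none in the window. Only exact spellings in a single window per gene were searched, and the part of E2F sites in the direction of any gene was not tested.

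The libraries held 19206661 and 19829158 counts with METTL14, against 20161082 and 19247784 in the controls. METTL14 itself had 7593 and 8516 counts with the plasmid and 472 and 598 in the controls, which goes with the labels (log2 fold change 3.88, SE 0.141, edgeR adjusted p = 7.33e-05). Plasmid and endogenous transcripts cannot be told apart in these counts. The 2 METTL14 libraries lay closer together than the 2 controls (chi-square per degree of freedom 3.34 with METTL14 and 29.8 in the controls). Of 12 colorectal epithelial markers, 10 averaged at least 1 CPM (counts scaled to library size) with METTL14 and 9 in the controls, and of the 10 tested 4 were called higher, such as CDH17 (log2 fold change 1.87, SE 0.118), and 3 lower, such as KRT8 (-0.90, SE 0.195). The 12 genes summed to 9379 and 9157 CPM with METTL14, against 18260 and 11920 CPM in the controls. Most of this sum was KRT8 (4518 CPM with METTL14 and 8446 in the controls, group means) and KRT18 (2187 and 4147). The sum therefore follows these keratins, and EPCAM was not called (-0.01, SE 0.0932). CEACAM5 had 1 and 2 counts with METTL14 and none in either control, and GPA33 had 6 and 10 with METTL14 and 2 and 1 in the controls. Of 9 fibroblast markers 3 reached that mean with METTL14 and 4 in the controls, and COL1A1 (0.51, SE 0.179) and PDGFRB (1.38, SE 0.252) were called higher. The other tested ones were not called: COL1A2 (-0.79, SE 0.396) and COL3A1 (-0.90, SE 0.412) lay lower and DCN (0.55, SE 0.47) higher. The 9 genes summed to 20.34 and 18.33 CPM with METTL14, against 13.32 and 16.27 CPM in the controls. Of 8 leukocyte markers 2 reached it with METTL14 and 1 in the controls, and the 8 summed to 3.18 and 3.80 CPM with METTL14, against 1.77 and 2.41 CPM in the controls. CD14 was called higher among them (21 and 35 counts with METTL14, against 6 and 10 in the controls), while PTPRC, the pan-leukocyte marker, had at most 1 count in a library and CD3E and FCGR3A had none. CD14 met the filter on low counts in both METTL14 libraries but not in both controls, so its call is no support for the direction. Of 5 endothelial markers 1 reached that mean with METTL14 and 0 in the controls, KDR had no count in any library, and the 5 summed to 1.90 and 1.53 CPM with METTL14, against 0.988 and 0.411 CPM in the controls. Mitochondrial transcripts took 9.85 and 10.2% of counts with METTL14, against 5.99 and 6.26% in the controls, and the part of these transcripts and of the marker genes in the results was not tested.

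With METTL14, the target and most activating enzymes of 5-fluorouracil were lower, and so was DUT, which destroys fluorinated deoxyuridine triphosphate. The deaminase CDA was higher. The breakdown enzyme DPYD was higher too, at few counts and under the filter limit given below. Of the 10 genes 6 fell (TYMS, TK1, DUT, UPP1, UMPS and UCK2), 2 rose (DPYD and CDA) and 2 did not pass the test (TYMP and UCK1). Calls are edgeR quasi-likelihood tests at a Benjamini-Hochberg adjusted p below 0.05 over 12700 genes. The background was high: 28.1% of all tested genes were called lower and 27.0% higher, 55.1% in all. For 8 of the 10 genes, the 8 that were called, no METTL14 library fell among the controls or the reverse, as for 79.8% of all tested genes. All 10 genes were tested, but DPYD passed the filter on low counts only through the METTL14 libraries, so it could hardly have been tested without being higher there. Their median log2 fold change was -0.72, against -0.01 for all genes tested. Asked for a change beyond 1.5-fold, the test kept TYMS, TK1, DUT and UMPS, 4 lower genes (background 10.7%). Of the higher ones it kept CDA and DPYD (background 11.1%), DPYD under the same filter limit. Without METTL14 overexpression replicate 2 it kept 2 of the lower genes, and without either METTL14 library neither DPYD nor CDA passed it. The 10 genes together took 0.0324 and 0.0325% of counts with METTL14, against 0.0852 and 0.0711% in the controls.

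**Figure D1:**
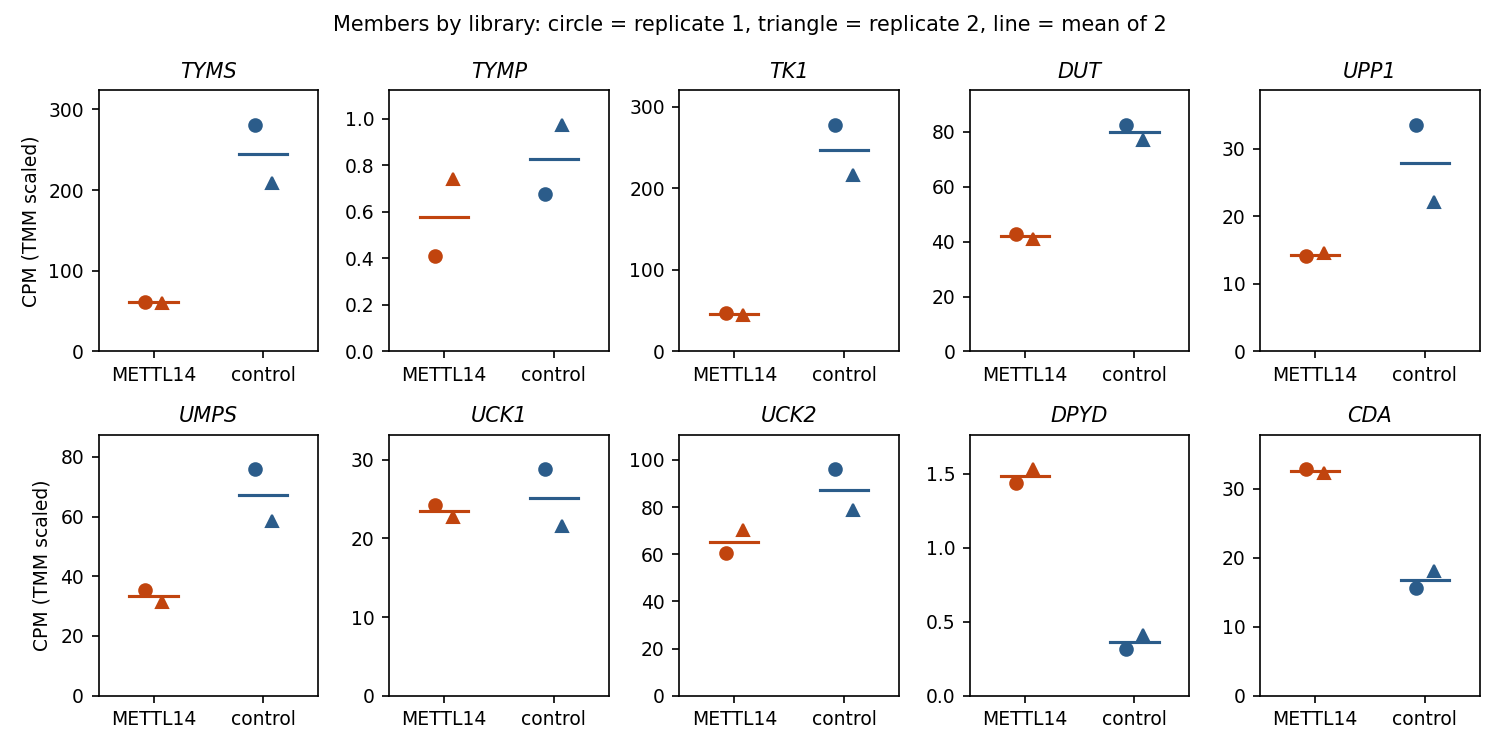
CPM (counts scaled to library size by TMM; vertical axes start at 0) of each gene by library, METTL14 overexpression in orange and control in blue; circles are replicate 1, triangles replicate 2 and lines the mean of 2 libraries. TYMS lies near 60.7 CPM in both METTL14 libraries and above 200 CPM in both controls, DPYD and CDA are higher in both METTL14 libraries, and the groups overlap for TYMP and UCK1.

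TYMS (ENSG00000176890; GRCh38 chromosome 18, 657604 to 673578, plus strand), the enzyme that fluorodeoxyuridylate blocks, had 61.19 and 60.22 CPM with METTL14, against 281.3 and 208.9 CPM in the controls. Both METTL14 libraries lay far below the lower control. The group means were 60.71 ± 0.683 and 245.1 ± 51.2 CPM (SD, n = 2 each), a 4.04-fold lower level with METTL14 (log2 fold change -2.01, SE 0.152, edgeR adjusted p = 0.000124). Only 1.14% of tested genes had a lower fold change. The exons of TYMS overlap those of ENOSF1 on the opposite strand over 967 bases, 39.1% of the merged exons of TYMS, and no source used here says whether the counting used strand. The authors' estimate gave TYMS 84.9 and 84.6% of the counts of the pair with METTL14 and 93.3 and 90.5% in the controls. ENOSF1, whose counts come from the same division, fell as well (log2 fold change -0.94, SE 0.136, edgeR adjusted p = 0.00113). Summed, the 2 genes had 72.08 and 71.14 CPM with METTL14, against 301.3 and 230.7 CPM in the controls, and the part of the division in the value of TYMS alone was not tested.

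TK1 (ENSG00000167900; chromosome 17, 78174075 to 78187233, minus strand), which phosphorylates thymidine and fluorodeoxyuridine, had 46.65 and 44.12 CPM with METTL14, against 278.3 and 216.4 CPM in the controls. It had the lowest fold change of the 10 genes and fell 5.45-fold (log2 fold change -2.45, SE 0.143, edgeR adjusted p = 9.2e-05), and only 0.409% of tested genes had a lower fold change. DUT (ENSG00000128951; chromosome 15, 48331011 to 48343373, plus strand), the dUTPase, had 42.95 and 40.91 CPM with METTL14, against 82.71 and 76.98 CPM in the controls. Its libraries agreed closely within both groups, and it fell 1.90-fold (log2 fold change -0.93, SE 0.103, edgeR adjusted p = 0.000385). TYMP (ENSG00000025708; chromosome 22, 50525752 to 50530056, minus strand), the thymidine phosphorylase, was barely expressed, with 8 and 15 counts with METTL14 and 13 and 19 in the controls. Its groups overlapped and it did not pass the test (log2 fold change -0.51, SE 0.504, edgeR adjusted p = 0.419). The ratio of its rates was 0.701 with a 95% exact interval of 0.392 to 1.24, which covers counting error only. A small rise of TYMP, or a fall as large as that of UMPS (2.02-fold), lies inside this interval and could have been missed at this depth. TYMP shares exon sequence with SCO2 and ODF3B, which leaves its few counts less certain.

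Count ratios between these genes differed between the groups. Within each library, the count ratio of TYMS to TK1 was 1.31 and 1.36 with METTL14, against 1.01 and 0.965 in the controls, and the ratio of TYMS to DUT was 1.42 and 1.47, against 3.4 and 2.71. Such ratios do not depend on how libraries are scaled, but they restate the separate changes of the genes. Neither pair of groups overlapped. For the levels of single genes this held for 79.8% of all tested genes, and no such share was computed for ratios. With 2 libraries against 2, an exact two-sided permutation test cannot go below p = 0.333, so these differences between genes were not tested further.

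Genes of S phase fell widely in the same libraries: 29 of 30 listed genes were called lower, against 28.1% of all tested genes, with a median log2 fold change of -1.85 (-0.01 for all genes tested), such as CDC6, which loads the replicative helicase (-2.09, SE 0.106), and MCM4, a subunit of that helicase (-2.29, SE 0.137). CCNE1, cyclin E1, was the gene not called (0.18, SE 0.139). Summed over the list, the level was 1306 and 1250 CPM with METTL14, against 5149 and 3941 CPM in the controls. In bulk RNA, fewer cells in S phase and less RNA per cell cannot be told apart for TYMS, TK1 or DUT. By Euclidean distance of centred log2 CPM over the 4 libraries, the genes nearest to TYMS among 12041 were MCM7, another helicase subunit (distance 0.0673, log2 fold change -1.99), the RNA helicase DDX39A (0.0752, -1.97) and TIPIN, a replication fork protein (0.0827, -1.97).

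**Figure D2:**
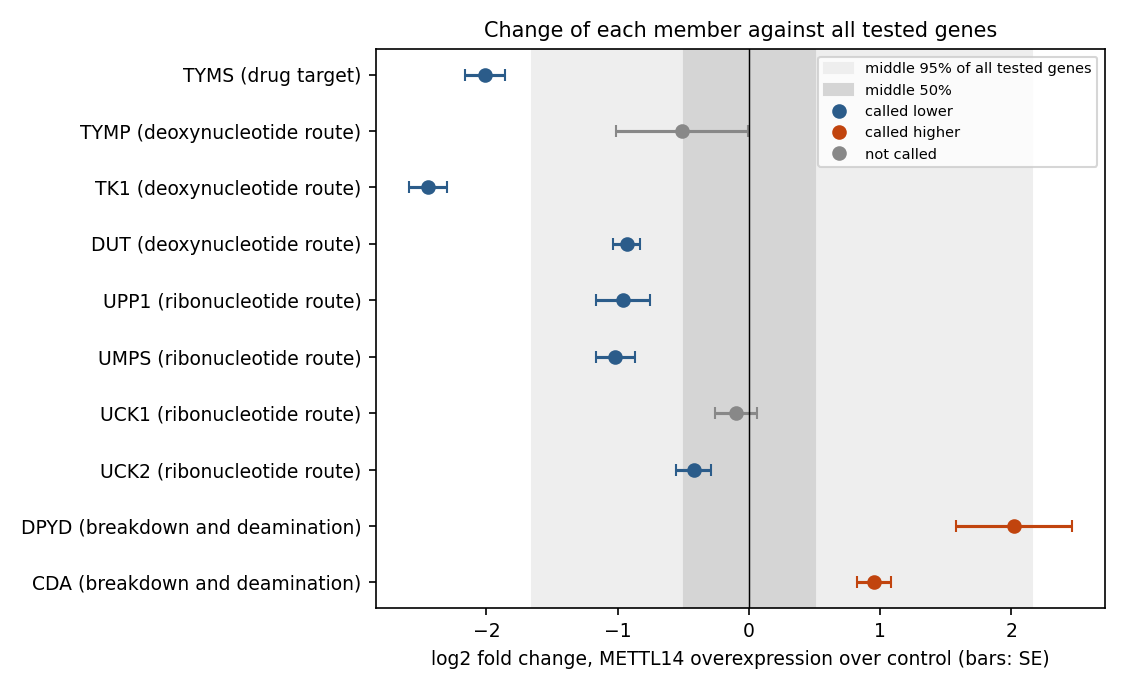
Log2 fold change of each gene, METTL14 overexpression over control (horizontal axis; bars are SE), with its role in brackets; dark grey spans the middle 50% of all tested genes (-0.49 to 0.50) and light grey the middle 95% (-1.65 to 2.16). TYMS and TK1 lie below the 95% span, while DPYD, the most raised of the 10, lies inside it.

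The log2 fold changes of the ribonucleotide route ran between -1.02 and -0.10, and 3 of its 4 enzymes fell, against 28.1% of all tested genes. Beyond 1.5-fold only UMPS was kept (background 10.7%), and UPP1 did not pass. UMPS (ENSG00000114491; chromosome 3, 124730366 to 124749273, plus strand), which makes the fluorinated ribonucleotide directly, had 35.3 and 31.32 CPM with METTL14, against 76.05 and 58.66 CPM in the controls. UPP1 (ENSG00000183696; chromosome 7, 48088628 to 48108733, plus strand), the uridine phosphorylase, had 14.13 and 14.52 CPM with METTL14, against 33.6 and 22.07 CPM in the controls. Neither gene's groups overlapped, as for 79.8% of all tested genes, and the controls stood well apart. UMPS fell 2.02-fold (log2 fold change -1.02, SE 0.15, edgeR adjusted p = 0.00123) and UPP1 1.94-fold (-0.96, SE 0.204, edgeR adjusted p = 0.00603). Leaving out control replicate 1 brought the change of UPP1 to -0.62, and it was still called. The count ratio of UMPS to UPP1 was 2.5 and 2.16 with METTL14 and 2.26 and 2.66 in the controls, so the groups overlapped.

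UCK2 (ENSG00000143179; chromosome 1, 165827531 to 165911618, plus strand) and UCK1 (ENSG00000130717; chromosome 9, 131523801 to 131531268, minus strand) encode the paired uridine-cytidine kinases. UCK2 had 60.52 and 70.15 CPM with METTL14, against 96.23 and 78.57 CPM in the controls, and it fell 1.34-fold (log2 fold change -0.42, SE 0.133, edgeR adjusted p = 0.0306). Its call was lost without METTL14 overexpression replicate 1 (-0.31, adjusted p = 0.267), and the gene did not pass the test beyond 1.5-fold. UCK1 had 24.3 and 22.73 CPM with METTL14, against 28.87 and 21.55 CPM in the controls, and did not pass the test (-0.10, SE 0.16, edgeR adjusted p = 0.62). Here control replicate 2 lay below both METTL14 libraries and control replicate 1 above them, and the sign depended on the controls: without control replicate 1 the change was 0.13, and without control replicate 2 it was -0.30 and called (adjusted p = 0.0133). UCK2 shares 225 exon bases with TMCO1 on the opposite strand, and UCK1 shares 6 with POMT1. The count ratio of UCK2 to UCK1 was 2.49 and 3.09 with METTL14, against 3.33 and 3.65 in the controls.

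DPYD (ENSG00000188641; chromosome 1, 97077743 to 97995000, minus strand), dihydropyrimidine dehydrogenase, was close to silent, with 28 and 31 counts with METTL14 and 6 and 8 in the controls. This is 1.44 and 1.53 CPM with METTL14, against 0.312 and 0.411 CPM in the controls. DPYD passed the filter on low counts only through the METTL14 libraries, so neither its test nor its interval is support for the direction. Both METTL14 libraries lay above both controls, 4.05-fold by the fit (log2 fold change 2.02, SE 0.441, edgeR adjusted p = 0.00671), and the call was lost without METTL14 overexpression replicate 2 (1.97, adjusted p = 0.0638). From the summed counts, 59 with METTL14 and 14 in the controls, the rate ratio was 4.11 with a 95% exact interval of 2.27 to 7.97, which covers counting error only and not the spread between libraries. The genes nearest to DPYD in pattern were AKR1B10, an aldo-keto reductase (distance 0.071, log2 fold change 1.78), MAP2, a microtubule-associated protein (0.0967, 1.75), and HIVEP2, a zinc finger factor (0.1, 1.74).

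CDA (ENSG00000158825; chromosome 1, 20588948 to 20618908, plus strand), cytidine deaminase, had 32.88 and 32.26 CPM with METTL14, against 15.61 and 18.01 CPM in the controls. The groups stood far apart relative to their spread, and CDA rose 1.94-fold (log2 fold change 0.95, SE 0.126, edgeR adjusted p = 0.000779). Its count ratio to TK1 was 0.705 and 0.731 with METTL14, against 0.0561 and 0.0833 in the controls, 10.5-fold higher by geometric means. The count ratio of TYMS to DPYD was 42.5 and 39.3 with METTL14, against 901 and 509 in the controls, 16.6-fold lower in the METTL14 libraries, though it rests on few DPYD counts. Both ratios set a gene that rose against a gene that fell. They restate those separate changes together and are no further result.

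The 2 controls differed from each other in these genes as well. All 6 genes called lower were higher in control replicate 1 than in control replicate 2, and both genes called higher were higher in control replicate 2. For DPYD this rests on 6 and 8 counts, too few to order the controls. Among all genes called lower, 62.2% were higher in control replicate 1, and among all genes called higher, 63.1% were higher in control replicate 2. For TYMS the change was -1.78 without control replicate 1 and -2.22 without control replicate 2, both called.

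**Figure D3:**
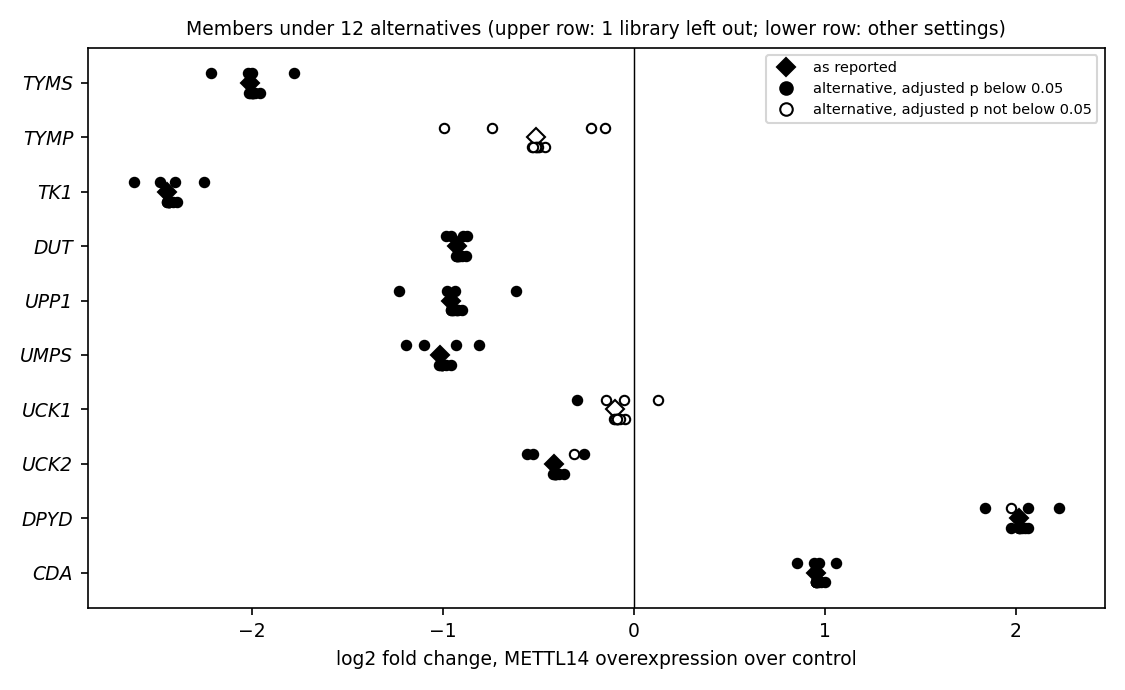
Log2 fold change of each gene, METTL14 overexpression over control (horizontal axis), as reported (diamonds) and under alternatives (circles; upper row with 1 library left out, lower row other settings); filled symbols have an adjusted p below 0.05. TYMS, TK1, DUT, UPP1, UMPS and CDA keep their side and filled symbols, while UCK1 falls on both sides of 0.

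Levels can be compared between genes only per length, and here CPM was divided by the length of the longest principal transcript in GENCODE release 29. On that scale TYMS stood at 36.8 and 36.2 CPM per kb with METTL14, against 169 and 126 CPM per kb in the controls, and TK1 at 28.7 and 27.1, against 171 and 133. With METTL14 the highest level was that of UCK2 (44 and 51 CPM per kb), and CDA (34.1 and 33.5) lay between TYMS and TK1. In the controls TYMS and TK1 were the most abundant of the 10, and their values overlapped. The order depends on the transcript assumed: UCK2 averaged per kb of merged exons 9.25 with METTL14 and 12.4 in the controls, and CDA was then the highest of the 10 with METTL14 (33.8). UPP1, UCK1 and UMPS averaged 7.42, 10.8 and 4.94 CPM per kb with METTL14 and 14.4, 11.6 and 10 in the controls, where neighbours in the order overlapped. Per kb of merged exons their order changed as well, with UPP1 the lowest of the 3 in both groups (3.13 with METTL14 and 6.08 in the controls) and UMPS at 4.4 and 8.89. At the bottom, DPYD had 0.326 and 0.347 CPM per kb with METTL14, against 0.0707 and 0.0931 in the controls. TYMP had 0.252 and 0.455 with METTL14, against 0.415 and 0.598, so that the 2 lowest genes overlapped with METTL14 and not in the controls.

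**Figure D4:**
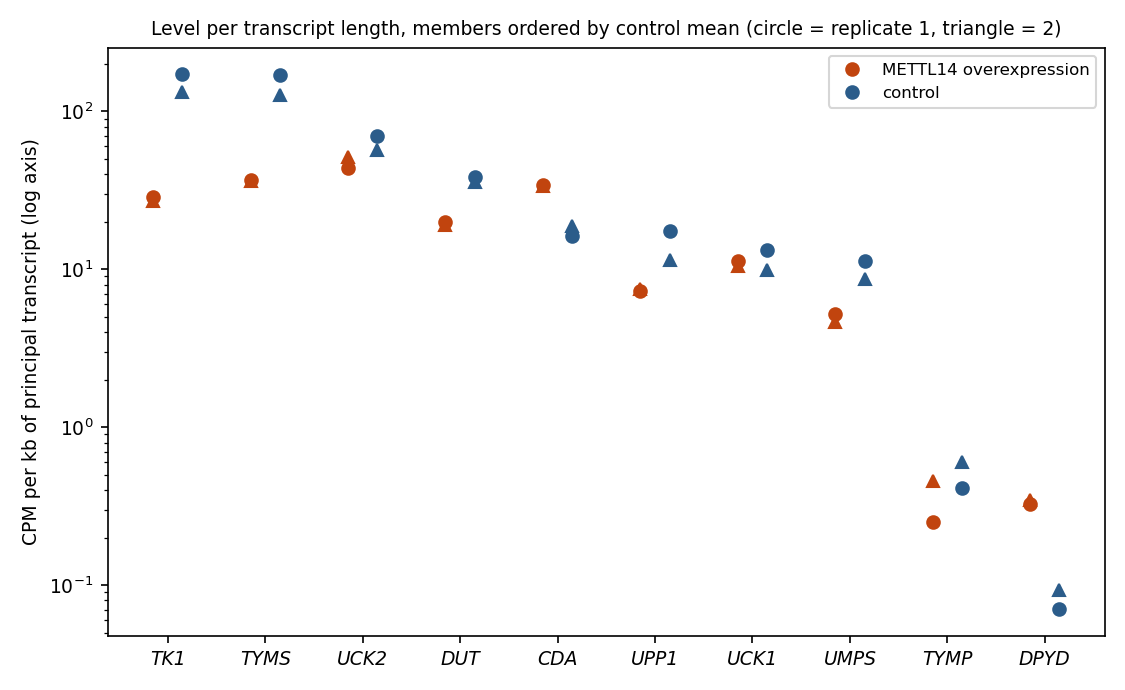
CPM per kb of principal transcript (log axis) for each gene and library, ordered by the control mean, with METTL14 overexpression in orange left of control in blue; circles are replicate 1 and triangles replicate 2. With METTL14, TYMS and TK1 lie close to UCK2 and CDA, and in the controls they are the highest; TYMP and DPYD lie far below the others.

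Around these 10 genes, 44 others handle fluoropyrimidines or the same nucleotide pools, and 38 were tested. With METTL14, 19 were called lower, 4 higher and 15 not called, with a median log2 fold change of -0.34. Over all tested genes 28.1% were called lower and 27.0% higher, with a median of -0.01, and no test of the list was made. The 4 higher genes were ABCC5, NT5E, NT5M and TK2, the last named after its values were seen.

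Steps that feed or extend the nucleotide routes were mostly lower. NME1, a nucleoside diphosphate kinase, had 38.12 and 38.73 CPM with METTL14, against 230.1 and 186.6 CPM in the controls (log2 fold change -2.44, SE 0.13). NME1 carried fractional counts, and the joint row NME1-NME2 was called higher (0.74, SE 0.218). The part of the division of reads between these rows in the value of NME1 was not tested. DTYMK, thymidylate kinase, which acts right after TYMS, had 30.31 and 29.25 CPM with METTL14, against 76.67 and 60.35 in the controls (-1.20, SE 0.14). In all, 4 of 6 nucleotide kinases were called lower, against 28.1% of all tested genes. TK2, the mitochondrial thymidine kinase, was called higher (0.45, SE 0.115), opposite in direction to TK1. CMPK1, which phosphorylates UMP and its fluorinated form, was not called (0.26, SE 0.111). RRM2 and RRM1, subunits of ribonucleotide reductase, were lower (-2.69, SE 0.188, and -1.55, SE 0.109), and RRM2B, the p53-inducible subunit, was not called (0.01, SE 0.111). PPAT (-0.86, SE 0.106), which uses phosphoribosyl pyrophosphate, the sugar phosphate that UMPS needs, and PRPS1 (-0.79, SE 0.0966), which makes it, were lower, and PRPS2 was not called (-0.20, SE 0.101).

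Of 6 genes around the folate cofactor of TYMS, 5 were lower, and 2 of them beyond 1.5-fold. Over all tested genes the shares were 28.1% and 10.7%. MTHFD1, which interconverts the folates that carry single carbon units, had 206.9 and 205.3 CPM with METTL14, against 474 and 409.6 CPM in the controls (log2 fold change -1.10, SE 0.108). FPGS, which adds the glutamate tail that keeps folates in the cell, was lower too (-0.93, SE 0.118), and GGH, a hydrolase of that tail, was not called (-0.30, SE 0.108). Uracil excision had 3 of 4 genes lower, of which 1, UNG, was lower beyond 1.5-fold. UNG was at -0.99 (SE 0.157) and TDG at -0.78 (SE 0.111), and MBD4 was not called (-0.12, SE 0.128).

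Of 9 tested nucleotidases and other enzymes of the nucleotide pools, 3 were lower and 2 higher, shares close to those of all tested genes (28.1% lower and 27.0% higher). NT5E, the cell surface nucleotidase CD73, had 140.5 and 142.7 CPM with METTL14, against 31.78 and 49.68 CPM in the controls (log2 fold change 1.80, SE 0.194), and the mitochondrial nucleotidase NT5M was at 1.11 (SE 0.205). DCTD, dCMP deaminase, another source of dUMP for TYMS, was not called (-0.17, SE 0.116). Of 6 tested transporters only ABCC5, an exporter of fluorinated nucleotides, was called (0.88, SE 0.1), while ABCC4 was not (-0.14, SE 0.097), nor was CES2, a carboxylesterase that acts on capecitabine (0.02, SE 0.101). The steps of breakdown after DPYD were almost without counts: DPYS had none in any library, and UPB1 had 1 and 1 with METTL14 and 0 and 2 in the controls. CES1 had 3 and 8 counts with METTL14 and none in the controls, and SLC22A7, CYP2A6 and UPP2 had none at all. NME1, NME2, NT5C2, SAMHD1, DCTPP1 and SLC19A1 carried fractional counts, as an estimate gives where reads are divided between genes, so their values are less certain.

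**Figure D5:**
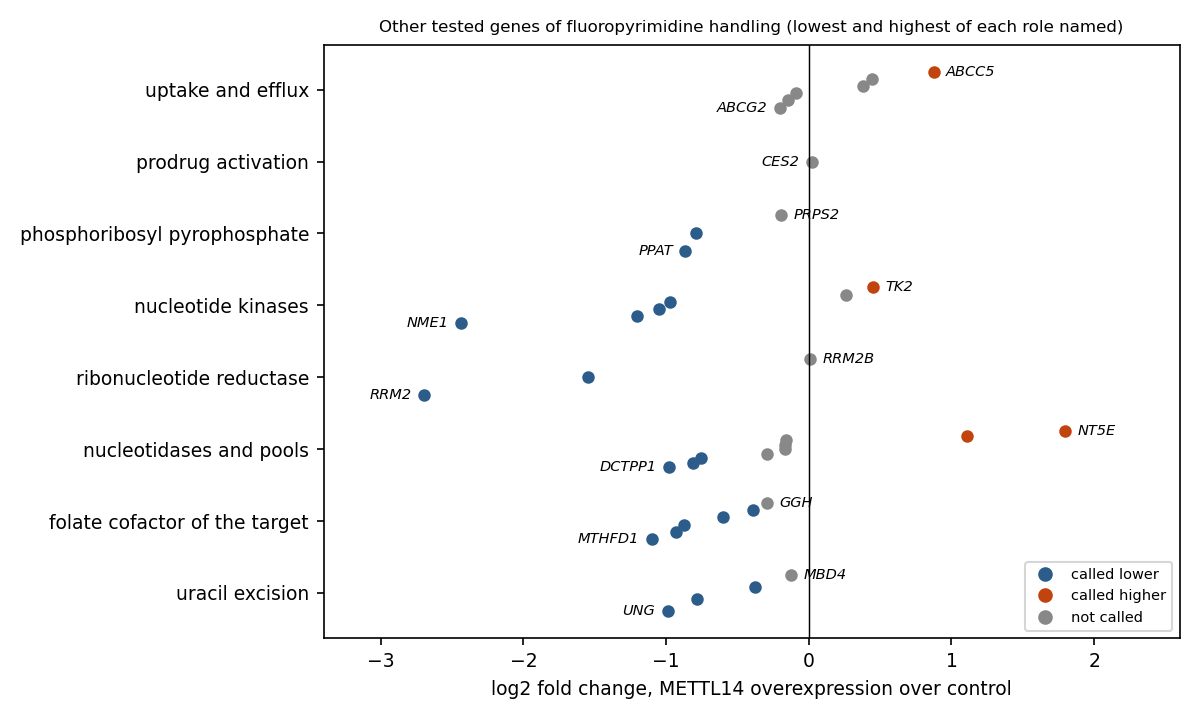
Log2 fold change, METTL14 overexpression over control (horizontal axis), of the 38 other tested genes by role, coloured by call, with the lowest and highest gene of each role named. Reductase and kinase genes extend furthest to the lower side (RRM2 -2.69, NME1 -2.44), and NT5E furthest to the higher side (1.80).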

How the data were processed

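The sample titles gave the groups and replicate numbers. The authors deposited expected counts (estimated, not normalized), of which 10.8 to 11.6% per library had a fraction at a tolerance of 0, and which were rounded before every test. The submitters' processing notes name RSEM, StringTie, HISAT2, Bowtie2 and fastp, and build hg18; versions, annotation and strand setting are not given in the sources used here. Of the gene identifiers, 20171 of 20323 are in GENCODE release 29 (GRCh38), so the build behind the counts is unclear. GENCODE was used for positions, lengths and exon overlap, and promoter windows are those of RefSeq on GRCh38.p14 (all 10 genes matched by symbol).

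The fit used R 4.3.3 and edgeR 4.0.16, with TMM scaling, a filterByExpr minimum count of 10, the robust quasi-likelihood test and no covariate, and with glmTreat against 1.5-fold. SE, which is approximate, is the absolute log2 fold change over the root of F. Each p rests on spread shared over genes (common biological coefficient of variation 10.8%). The procedure was tested on simulated data. The alternatives were DESeq2 1.42.0, limma-voom (limma 3.58.1), other scalings and filters, no robust step, a replicate block and leaving out each library. Rows without a symbol (102) took at most 0.037% of counts. Replicates differed beyond sampling noise and were not merged. Named besides the 10 genes and METTL14 were, per list, up to 2 called genes with the largest change (S phase: the smallest p) and, in the pathway lists, the most abundant gene not called, overlapping neighbours, and the 3 genes nearest in pattern to TYMS and to DPYD (mean of at least 1 CPM, prior count 2). Some genes of the lists are not reported here. The 10 genes and all lists were chosen with earlier results of these data known.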

Additional observations from a re-analysis of the deposited data

How the results depend on the processing

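Over 12 alternatives, 118 values of the 10 genes were recomputed: 114 kept their direction and side of the threshold, 2 lost the call (UCK2 and DPYD), and UCK1, not called as reported, was called once (-0.299) and reversed once, to 0.128 without control replicate 1. With libraries left out, 5 to 7 of the 10 genes were lower and 1 to 2 higher, and beyond 1.5-fold 2 to 5 were lower and 0 to 2 higher; without METTL14 overexpression replicate 1 or replicate 2 0 were higher beyond 1.5-fold by glmTreat (2 at an unadjusted p below 0.05). Leaving out a control leaves the spread to the close METTL14 pair, and a lone library is assumed to vary like the other group. With a filter of 5 CPM in 2 libraries DPYD and TYMP were not tested, so 1 gene was higher, also beyond 1.5-fold. Of the genes around them 16 to 24 were lower and 3 to 6 higher with a library left out, against 19 and 4. Over all genes, 2307 to 4575 were lower and 2307 to 4452 higher in such fits, against 3569 and 3429. The replicate block gave 6 lower and 2 higher of the 10 genes and lost no call; same-numbered libraries hardly deviated together (r = 0.044 across genes), so the numbers were not taken as pairs. TYMP and DPYD are limited by depth, with at most 31 counts in a library.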
